A study of Mus musculus with 20 samples.

Results

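MicroRNAs miR-122, miR-802 and miR-148a are made in hepatocytes and can be read in serum. Each hairpin yields 2 mature arms, which gave 6 mature miRNAs (mmu-miR-122-5p and mmu-miR-122-3p, mmu-miR-802-5p and mmu-miR-802-3p, mmu-miR-148a-3p and mmu-miR-148a-5p, written below without the species prefix). They were taken by name from the deposited table of read counts, and are 6 of its 1915 mature names, of which 1191 had a read. Serum small RNA came from female old dwarf and young dwarf mice and from female old normal and young normal mice, with 5 libraries in each of the 4 groups. Old animals were 21 to 22 months of age and young animals 5 to 6 months, and no treatment is named. The labels give 1 strain name, Ames dwarf on a mixed background, to dwarf and normal mice alike, and do not give the genotype of the normal mice further. The series asks whether serum miRNAs differ with age in long-lived dwarf and in normal mice.

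Ames dwarf mice make almost no growth hormone, prolactin or thyroid-stimulating hormone. Hepatocytes are a main target of growth hormone. miR-122 is the most abundant miRNA of hepatocytes and is close to specific to them, so its level in blood is widely used as a sign of hepatocyte injury. miR-802 is found in liver, kidney and pancreas, and in obese mice it impairs insulin action. miR-148a is abundant in liver but is also made in many other tissues, among them pancreas and blood cells, and represses targets such as Dnmt1 and the LDL receptor. In serum, more cells releasing a miRNA and more miRNA released per cell cannot be told apart.

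The sequences below show which of these miRNAs could act on the same targets, since a miRNA finds its targets mainly through its seed, bases 2 to 8, set in capitals. They are RefSeq mature sequences (GRCm38.p6), written 5′ to 3′.
miR-148a-3p: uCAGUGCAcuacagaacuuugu
miR-148b-3p: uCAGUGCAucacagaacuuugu
miR-152-3p: uCAGUGCAugacagaacuugg
miR-802-5p: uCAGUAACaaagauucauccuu
RefSeq entries were matched for 4 of the 6 members, and miR-122-5p and miR-122-3p are named only. The seed of miR-148a-3p is shared by 3 of 1738 mature names in the RefSeq table, which are miR-148a-3p itself, miR-148b-3p and miR-152-3p. Counted from 1 at the 5′ end of miR-148a-3p, miR-148b-3p differs from it by C9U and U10C, and miR-152-3p by C9U, U10G and U20G. The seeds of miR-802-5p and of miR-802-3p were each found in 1 name. In the authors' deposited miRDeep2 report on all libraries together, the consensus of the miR-802-5p reads was 23 bases long, 1 base longer at the 3′ end than the 22 annotated.

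The 3 genes lie apart (GRCm38, GENCODE M21). Mir122 is on chromosome 18 at 65248861 to 65248926, plus strand, within an exon of the long non-coding RNA AC157910.3. Mir802 is on chromosome 16 at 93369720 to 93369816, plus strand, between genes, 543571 bases from Runx1 on one side and 213641 bases from Setd4 on the other. Mir148a is on chromosome 6 at 51269812 to 51269910, minus strand, between genes, 615373 bases from Npvf and 162760 bases from Nfe2l3.

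Libraries held 1343137 to 4710263 miRNA reads (median 2116066). Levels are counts scaled to CPM on library sizes scaled by TMM, and fold changes are log2 values from edgeR, given with a standard error (SE). A miRNA is called changed where the p-value of the quasi-likelihood test of edgeR, adjusted over the 360 miRNAs tested, is under 0.05. Whether the 5 libraries of a group are from separate mice is not stated, so p-values measure the spread between these libraries. Of the 6 members, 5 were tested, and miR-122-3p, with 188 reads in all, did not pass the filter on low counts.

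Before the comparisons, 4 libraries have to be named because they stand apart. Old dwarf replicates 4 and 5 and young dwarf replicates 3 and 5 held the 4 highest levels of miR-122-5p, miR-122-3p and miR-802-5p among the 20 libraries. The other 16 libraries held 1.60 to 69.6 CPM of miR-122-5p and 6.70 to 28.2 CPM of miR-802-5p. The 4 held at least 99.4 CPM and 106 CPM of these, so the step was small for miR-122-5p. Results that rest on these 4 libraries are given with and without them, a check added after their values were seen. Leaving out high libraries of 1 genotype lowers that genotype by construction. A second check also left out the highest normal library at each age, old normal replicate 3 and young normal replicate 3. It is not balanced, as it left out 4 dwarf but 2 normal libraries, and still lowers dwarf levels more by construction.

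Markers of other sources were read by group, and the haemolysis index and the myeloid and platelet list also in these 4 libraries. The haemolysis index, the log2 ratio of the red-cell miRNA miR-451a to miR-23a-3p, was 6.09 and 5.37 in old dwarf replicates 4 and 5 and 5.66 and 5.11 in young dwarf replicates 3 and 5. Group means were 5.38 ± 0.44 in old dwarf, 5.40 ± 0.43 in young dwarf, 4.30 ± 0.70 in old normal and 5.45 ± 0.61 in young normal mice (SD, n = 5 each). The summed level of 3 myeloid and platelet miRNAs, all detected in every library, spanned 11234 to 33484 CPM across old dwarf libraries and 32079.7 to 52567 CPM across old normal ones. It was 11234 and 13150 CPM in old dwarf replicates 4 and 5 and 11275 and 12149 CPM in young dwarf replicates 3 and 5. Old dwarf replicates 1 to 3 held 11746, 33484 and 26849 CPM, and young dwarf replicates 1, 2 and 4 held 26579, 14009 and 11237 CPM. The 4 red-cell miRNAs were also detected in every library. Their sum spanned 304746 to 569666 CPM and 390267 to 581722 CPM in the same groups, old dwarf and old normal. Most of it was miR-486a-5p, which averaged 392032 CPM for old normal against 313632 CPM for old dwarf libraries. Means of the rest were lower for old normal libraries. They were 18409 against 30615 CPM for miR-451a, 49438 against 68872 CPM for miR-16-5p and 377 against 561 CPM for miR-144-3p. The ranges of the myeloid and platelet list overlapped only between 32079.7 and 33484 CPM. Most of that sum was miR-191-5p, which averaged 40193 CPM for old normal against 18688 CPM for old dwarf libraries. The other members of the list overlapped more widely. miR-223-3p spanned 188 to 640 CPM in old dwarf and 307 to 718 CPM in old normal libraries. miR-142a-3p spanned 230 to 339 CPM in old dwarf and 226 to 422 CPM in old normal libraries. The part of blood cells in the results on dwarf against normal serum was not tested beyond a fit that held the haemolysis index. The 2 lymphocyte miRNAs, miR-150-5p and miR-342-3p, summed to 657 to 1437 CPM in old dwarf and 1570.5 to 4946 CPM in old normal libraries, with no overlap. Of all tested miRNAs, 12.5% did not overlap between these groups. Most of the lymphocyte sum was miR-150-5p, at 624 to 1367 CPM in old dwarf and 1418 to 4740 CPM in old normal libraries. miR-342-3p overlapped, at 33.4 to 72.5 CPM in old dwarf and 66.3 to 214 CPM in old normal libraries. In young mice the 2 lymphocyte miRNAs summed to 639.8 to 1417 CPM for dwarf and 605 to 1879.8 CPM for normal serum. Both lymphocyte miRNAs were detected in every library. Of 5 muscle miRNAs, 3 were read in every library, miR-206-3p was at 0 in 18 and miR-1a-3p at 0 in 4 libraries, and their sum, mostly miR-133a-3p, spanned 1982 to 5568 CPM in old dwarf and 318 to 4002 CPM in old normal serum. Of the 2 endocrine miRNAs, miR-375-3p was read in every library and miR-7a-5p was at 0 in 13, with sums of 171 to 2295 CPM in old dwarf and 830.2 to 3927 CPM in old normal serum. All 5 epithelial miRNAs were read in every library, with sums of 277 to 392 CPM in old dwarf and 236 to 953 CPM in old normal serum.

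miR-122-5p varied more between libraries of the same group than any other miRNA tested. mmu-miR-122-5p stood at 12.9, 3.94, 9.58, 347 and 117 CPM in old dwarf replicates 1 to 5 and at 5.22, 1.60, 204, 16.1 and 99.4 CPM in young dwarf replicates 1 to 5. In old normal replicates 1 to 5 it stood at 13.6, 6.27, 37.0, 10.4 and 4.81 CPM, and in young normal replicates 1 to 5 at 17.5, 6.28, 69.6, 5.91 and 5.99 CPM. Each dwarf group thus had 2 libraries above every normal library of its age and 3 within the normal range or below it, so the groups overlapped. The lowest level rested on 5 reads in young dwarf replicate 2, a 95% Wilson interval of 0.685 to 3.76 CPM, and the highest on 509 reads in old dwarf replicate 4, an interval of 318 to 379 CPM. Such intervals cover counting error only, as amplified reads are not independent molecules. The highest library held 216 times the level of the lowest.

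The SD within groups of miR-122-5p was 2.08 on the log2 scale, the widest of 360. The median over all tested miRNAs was 0.60 and the upper quartile 0.84. miR-802-3p, at 1.32, ranked 14th and miR-802-5p, at 1.14, ranked 33rd from the widest. miR-148a-5p, at 0.69, ranked 141st. miR-148a-3p, the most abundant of the 6, ranked 266th, with an SD of 0.43. The tested members thus ran from the widest spread of all to below the median.

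**Figure D1:**
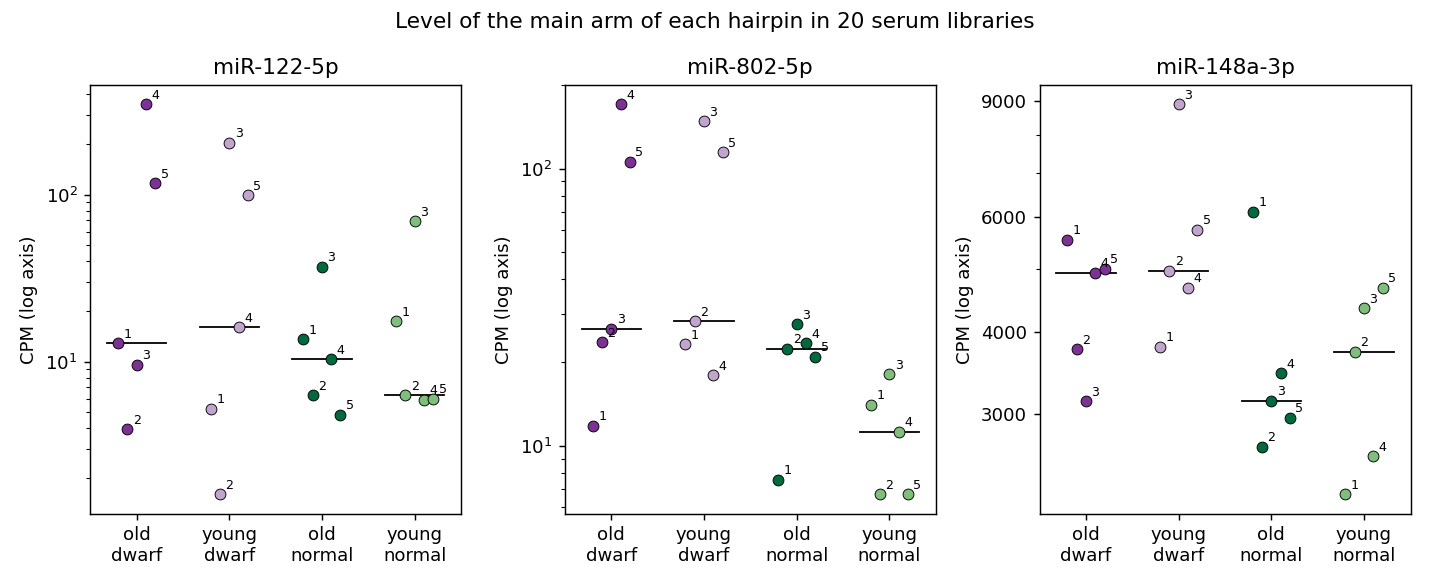
Level in CPM (log axis) of miR-122-5p, miR-802-5p and miR-148a-3p in each of 20 serum libraries, by group, with replicate numbers beside the points and a line at each group's median. Old dwarf replicates 4 and 5 and young dwarf replicates 3 and 5 lie above the other libraries for miR-122-5p and miR-802-5p. The step to the next library is wide for miR-802-5p (106 to 28.2 CPM) and small for miR-122-5p (99.4 to 69.6 CPM). For miR-148a-3p these are not the 4 highest, and the highest library is young dwarf replicate 3 at 8889.7 CPM.

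**Figure D2:**
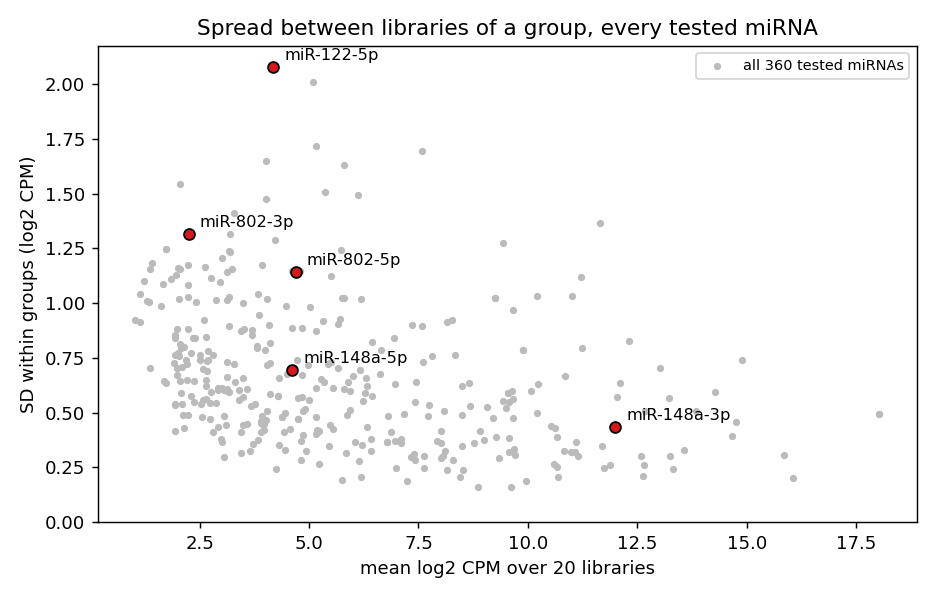
SD within groups of log2 CPM (y axis) against the mean log2 CPM over 20 libraries (x axis) for each of the 360 tested miRNAs in grey, with the 5 tested members in red. miR-122-5p has the highest point, at 2.08, and miR-148a-3p lies near the lower part of the cloud, at 0.43.

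Dwarf serum averaged more miR-122-5p than normal serum at both ages, but no comparison passed the test. In old mice the mean was 98.2 ± 147.0 CPM for dwarf serum and 14.4 ± 13.1 CPM for normal serum (SD, n = 5 each), a log2 fold change of 2.74 ± 1.24 SE with an adjusted p of 0.0950. In young mice the mean was 65.3 ± 87.5 CPM in dwarf and 21.0 ± 27.6 CPM in normal serum, a log2 fold change of 1.63 ± 1.18 SE with an adjusted p of 0.6998. The medians were closer, 12.9 CPM for dwarf against 10.4 CPM for normal serum in old mice and 16.1 CPM for dwarf against 6.28 CPM for normal serum in young mice. Over both ages the fold change was 2.18 ± 0.86 SE (adjusted p 0.0613), and between 1.40 without old dwarf replicate 4 and 2.80 without young normal replicate 3. This fold change passed the threshold in 5 of the 20 fits that left out 1 library, with a smallest adjusted p of 0.0301. Without the 4 dwarf libraries it was -1.02 (adjusted p 0.406), -0.70 in old mice and -1.34 in young mice, and without the highest normal libraries as well it was -0.08 over both ages (adjusted p 0.932). With the haemolysis index in the fit it was 1.11 over both ages (adjusted p 0.458). The value in that fit was 0.28 in old mice and 1.93 in young mice (adjusted p 0.526 in young mice).

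The age comparisons of miR-122-5p did not pass the test. The fold change of old against young was 0.58 ± 1.15 SE in dwarf mice (adjusted p 0.997) and -0.53 ± 1.19 SE in normal mice (adjusted p 0.754). The difference between these age effects was 1.12 ± 1.65 SE (adjusted p 0.731). Without old dwarf replicate 4 the age effect in dwarf mice was -0.94, and without young normal replicate 3 the age effect in normal mice was 0.71.

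The minor arm miR-122-3p, released from the same hairpin, followed the same libraries at a lower level. It stood at 0.538, 1.08, 0.563, 36.8 and 9.94 CPM in old dwarf replicates 1 to 5 and at 0.474, 0, 21.1, 1.53 and 7.40 CPM in young dwarf replicates 1 to 5. In old normal mice it was read in replicate 3 alone, at 3.58 CPM, and in young normal replicates 1 to 5 it stood at 1.46, 0.419, 3.69, 0.844 and 0 CPM. The 4 libraries with 7.40 CPM or more are the same 4 dwarf libraries that stood highest for miR-122-5p. In the 6 libraries without a read, a count of 0 allows a level of up to 0.963 to 2.69 CPM, from 3 reads in the library. In a fit with no filter on low counts, the dwarf over normal fold change of miR-122-3p was 2.84 ± 0.71 SE over both ages (adjusted p 0.00656), 3.49 ± 1.05 SE in old mice (adjusted p 0.0294) and 2.20 ± 0.95 SE in young mice (adjusted p 0.570). That fit called 8.82% of 1191 miRNAs over both ages, 7.98% in old mice and 0.084% in young mice. Without the 4 dwarf libraries the values were -0.48 over both ages (adjusted p 0.9998), -0.0331 in old mice (adjusted p 1) and -0.93 in young mice (adjusted p 0.926). Without old normal replicate 3 as well, no old normal library held a read, and no fold is given.

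miR-802 was the hairpin whose arms were both called higher in dwarf serum. mmu-miR-802-5p stood at 11.8, 23.7, 26.5, 171 and 106 CPM in old dwarf replicates 1 to 5 and at 23.2, 28.2, 148, 18.0 and 115 CPM in young dwarf replicates 1 to 5. In old normal replicates 1 to 5 it stood at 7.54, 22.4, 27.4, 23.4 and 20.9 CPM, and in young normal replicates 1 to 5 at 14.1, 6.70, 18.2, 11.3 and 6.70 CPM. In young mice 4 of 5 dwarf libraries lay above all normal ones, and the fifth, replicate 4, lay just under the highest normal library. In old mice 2 of 5 dwarf libraries lay above all normal ones, and the groups overlapped, as they did for each of the 6 members in old mice. Groups without overlap there made up 12.5% of all tested miRNAs.

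Over both ages miR-802-5p rose in dwarf serum by 2.13 ± 0.49 SE on the log2 scale (adjusted p 0.00641). miR-802-3p rose by 2.44 ± 0.65 SE (adjusted p 0.0147). These were 2 of the 5 tested members called, against 27.8% of all tested miRNAs called in this comparison and 15.3% called higher. An unadjusted p under 0.05 was seen for 4 members, against 41.9% of all tested miRNAs, and DESeq2 called 4, against 35.6%. All 5 tested members had a positive fold change, with a median of 2.13 against -0.04 over all 360 miRNAs. Leaving out any 1 of the 20 libraries kept the adjusted p of miR-802-5p at 0.0185 or lower and that of miR-802-3p at 0.0418 or lower, and the fold change of miR-802-3p was 1.81 without old dwarf replicate 4. Without the 4 dwarf libraries miR-802-5p stood at 0.56 (adjusted p 0.316) and no miRNA was called (0 against 100), and without the 2 normal libraries as well it stood at 0.72 (adjusted p 0.281). miR-802-3p did not pass the low-count filter in either of these fits. With the haemolysis index in the fit the values were 1.82 for miR-802-5p (adjusted p 0.0729) and 1.74 for miR-802-3p (adjusted p 0.149). For old mice that fit gave 1.04 for miR-802-5p, against 1.73 without the index, and 0.63 for miR-802-3p, against 2.26.

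Within each age the miR-802 arms did not pass the test. miR-802-5p averaged 66.4 ± 60.6 CPM for dwarf and 11.4 ± 4.93 CPM for normal serum in young mice (SD, n = 5 each), with a fold change of 2.54 ± 0.70 SE (adjusted p 0.183). In this comparison none of the 360 miRNAs was called by edgeR (0.0%), with 28 at an unadjusted p under 0.05 (7.78%) and 6 called by DESeq2 (1.67%). Among the 5 tested members 3 had an unadjusted p under 0.05 and DESeq2 called 1. In old mice miR-802-5p averaged 67.7 ± 68.6 CPM in dwarf and 20.3 ± 7.55 CPM in normal serum, with a fold change of 1.73 ± 0.69 SE (adjusted p 0.0657), and 0.95 without old dwarf replicate 4. In old mice it passed the threshold in 3 of the 20 fits that left out 1 library. None of the 5 tested members was called there by edgeR, against 26.4% of all tested miRNAs, while 3 had an unadjusted p under 0.05, against 45.3% of all, and DESeq2 called 3, against 37.8% of all. Without the 4 dwarf libraries the fold change of miR-802-5p was 1.06 in young mice (adjusted p 0.813) and 0.06 in old mice (adjusted p 0.951). The difference between the age effects in dwarf and normal mice was -0.81 ± 0.95 SE (adjusted p 0.657). Old against young gave 0.02 ± 0.66 SE in dwarf mice (adjusted p 0.997) and 0.83 ± 0.69 SE in normal mice (adjusted p 0.357).

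miR-802-3p was read in all 20 libraries, at 2.69, 2.15, 2.82, 38.2 and 11.9 CPM in old dwarf replicates 1 to 5 and at 1.42, 1.60, 39.9, 4.98 and 26.9 CPM in young dwarf replicates 1 to 5. The 10 normal libraries held 1.51 to 2.75 CPM in old and 1.13 to 5.54 CPM in young mice. Apart from the 4 dwarf libraries, the levels of the genotypes covered almost the same range. The fold change was 2.26 ± 0.95 SE in old mice (adjusted p 0.0748) and 2.63 ± 0.90 SE in young mice (adjusted p 0.347). In old mice it passed the threshold in 2 of the 20 fits that left out 1 library.

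**Figure D3:**
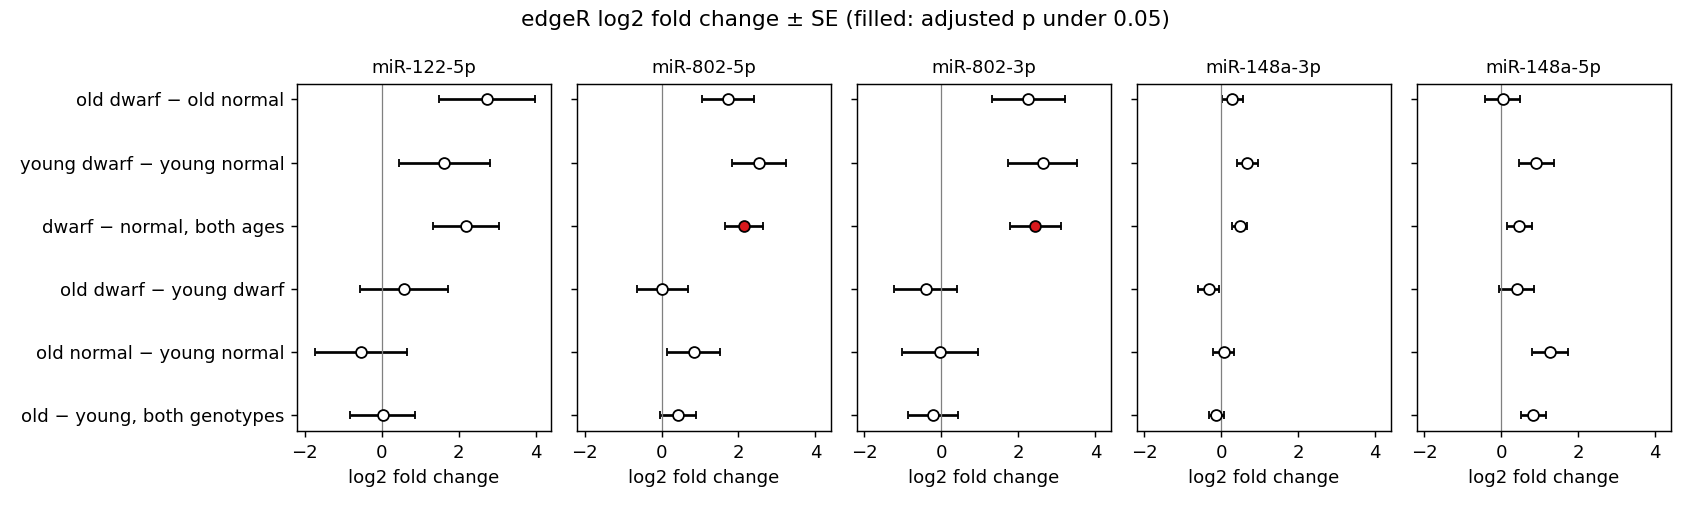
edgeR log2 fold change with its standard error (x axis) of the 5 tested members in each comparison (y axis), with the first-named group over the second. Filled points pass the adjusted threshold and are miR-802-5p (2.13) and miR-802-3p (2.44) for dwarf against normal over both ages, and all other points are open.

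The abundant miR-148a-3p had smaller fold changes between genotypes than the arms of miR-122 and miR-802, and none passed the test. mmu-miR-148a-3p stood at 5535, 3769, 3141, 4928 and 5003 CPM in old dwarf replicates 1 to 5 and at 3806, 4961, 8889.7, 4679 and 5728 CPM in young dwarf replicates 1 to 5. In old normal replicates 1 to 5 it stood at 6103, 2681, 3146, 3463 and 2965 CPM, and in young normal replicates 1 to 5 at 2269.5, 3735, 4350.3, 2594 and 4679 CPM. In young mice 4 of 5 dwarf libraries lay above all normal ones by a margin that was small for replicate 4, and in old mice the highest library was a normal one. In young mice the mean was 5613 ± 1957 CPM for dwarf and 3525 ± 1061 CPM for normal serum (SD, n = 5 each), a fold change of 0.67 ± 0.27 SE (adjusted p 0.446). In old mice it was 4475 ± 986 CPM in dwarf and 3672 ± 1388 CPM in normal serum, a fold change of 0.29 ± 0.27 SE (adjusted p 0.427). Over both ages the fold change was 0.48 ± 0.19 SE (adjusted p 0.0689), and 0.30 without the 4 dwarf libraries (adjusted p 0.498). It passed the threshold in 4 of the 20 fits that left out 1 library, with a smallest adjusted p of 0.0238. Old against young gave -0.33 ± 0.27 SE in dwarf mice (adjusted p 0.997) and 0.06 ± 0.27 SE in normal mice (adjusted p 0.889).

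The minor arm miR-148a-5p was the member that separated young dwarf from young normal libraries without overlap. It stood at 20.9, 27.9, 42.1, 18.4 and 25.3 CPM in young dwarf replicates 1 to 5 and at 12.6, 15.5, 15.7, 9.57 and 18.3 CPM in young normal replicates 1 to 5. The lowest dwarf library and the highest normal library were nearly level. Such separation was seen for 1.94% of all tested miRNAs, 0.833% with dwarf higher, and the fold change of 0.91 ± 0.46 SE did not pass the test (adjusted p 0.618).

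In old mice miR-148a-5p stood at 30.7, 28.7, 15.8, 54.6 and 48.7 CPM in dwarf replicates 1 to 5 and at 94.0, 21.5, 24.6, 20.7 and 12.4 CPM in normal replicates 1 to 5. Old normal replicate 1 held the most of all 20 libraries. The fold change was 0.04 ± 0.45 SE with this library (adjusted p 0.954) and 0.86 without it. Over both ages it was 0.47 ± 0.32 SE (adjusted p 0.264), against 0.88 without old normal replicate 1, where it passed the threshold (adjusted p 0.0183). Old against young in normal mice gave 1.27 ± 0.46 SE (adjusted p 0.0644) and 0.46 without that library, in a comparison where edgeR called 15.6% of tested miRNAs and no member. There 1 member had an unadjusted p under 0.05, against 38.3% of all, and DESeq2 called 1, against 32.5% of all. In dwarf mice the same age comparison called 0.556% of miRNAs and no member, with 0 members at an unadjusted p under 0.05 (3.89% of all) and 0 called by DESeq2 (0.556% of all), and miR-148a-5p stood at 0.40 ± 0.45 SE (adjusted p 0.997). Over both genotypes, where 8.89% were called, no member was called with age by edgeR or DESeq2 (16.9% of all), 1 had an unadjusted p under 0.05 (29.4% of all), and miR-148a-5p at 0.84 ± 0.32 SE had the smallest adjusted p of the members (0.0943). No member was called by edgeR or DESeq2 for the difference between the age effects, and 0 had an unadjusted p under 0.05. Of all tested miRNAs 0.556% were called by edgeR and 5.56% by DESeq2, and 15.8% had an unadjusted p under 0.05.

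The share of each hairpin's reads on its minor arm was set apart from library scaling, since both arms are counted in the same library. Over all libraries the minor arm held 8.08% of miR-122 reads (95% Wilson interval 7.04 to 9.26), 15.96% of miR-802 reads (14.5 to 17.6) and 0.601% of miR-148a reads (0.569 to 0.635). In the authors' deposited miRDeep2 report on all libraries together, which holds no values per library, the star arm had 186 of 2324 miR-122 reads, 352 of 2205 miR-802 reads and 1248 of 207579 miR-148a reads. The 4 dwarf libraries with the most miR-122 had minor-arm shares of 9.59%, 7.81%, 9.34% and 6.93%, near the share over all libraries, and both arms of miR-122 were high in them. For miR-802 the same libraries had 18.3%, 10.1%, 21.2% and 19.0%.

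The ratio of main to minor arm was compared between groups with 12 two-sided exact permutation tests of 5 against 5 libraries, in which the smallest possible p is 0.00794, and none passed after adjustment. The largest difference for miR-148a was between old and young normal mice, where the mean log2 ratio was 7.04 ± 0.69 in old and 7.90 ± 0.26 in young mice (SD, n = 5 each), a difference of -0.86 (exact permutation p 0.0159, adjusted p 0.190). In dwarf mice the same ratio was 7.06 ± 0.49 in old and 7.69 ± 0.22 in young mice, a difference of -0.63 (exact permutation p 0.0397, adjusted p 0.238). For miR-122 the ratio was 3.21 ± 0.88 in old dwarf and 4.63 ± 1.01 in old normal mice, a difference of -1.42 (exact permutation p 0.0635, adjusted p 0.254). In old normal mice 4 of 5 libraries had no miR-122-3p read, so that ratio rests on the added 0.5 reads. The miR-802 ratios differed by 0.58 or less in size in all 4 comparisons, with adjusted p of 0.381 or higher.

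**Figure D4:**
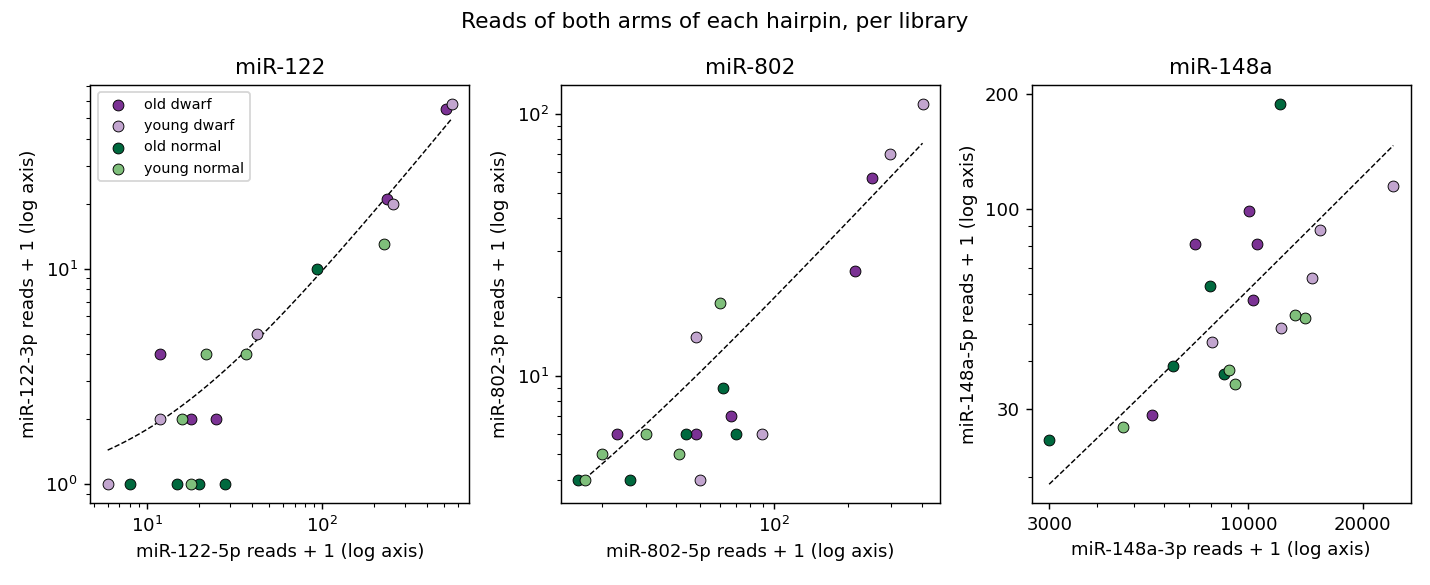
Reads plus 1 of the minor arm (y axis, log) against reads plus 1 of the main arm (x axis, log) of miR-122, miR-802 and miR-148a, a point per library, with a dashed line at the share of the arms over all libraries. The 4 dwarf libraries with the most miR-122-5p lie close to the line in the first panel, and old normal replicate 1 lies above it for miR-148a, with 187 reads of miR-148a-5p.

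Among miRNAs with the seed printed above, miR-148a-3p supplied nearly all reads. It held 91.2% to 96.7% of the reads of the 3 in a library (median 94.3%), miR-148b-3p 2.70% to 7.81% and miR-152-3p 0.351% to 1.63%. Mir148b lies in an intron of Copz1 on chromosome 15 and Mir152 in an intron of Copz2 on chromosome 11. Neither relative nor its minor arm was called by edgeR in any of the 7 comparisons, in which 0.0% to 27.8% of all tested miRNAs were called. At most 1 of these 4 miRNAs had an unadjusted p under 0.05 in a comparison, against 3.89% to 45.3% of all miRNAs. DESeq2 called 1 between old dwarf and old normal mice, where it called 37.8% of all miRNAs, and 1 over both ages, where it called 35.6%. Over both ages the dwarf over normal fold change was 0.06 ± 0.14 SE for miR-148b-3p (adjusted p 0.741) and 0.38 ± 0.21 SE for miR-152-3p (adjusted p 0.170). The smallest adjusted p was that of the minor arm miR-152-5p in old mice, 1.47 ± 0.56 SE (adjusted p 0.0550).

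Other miRNAs known from liver were read as a list of 14, of which 11 were tested. Over both ages 3 of the 11 were called, all higher in dwarf serum, with a list median of 0.39 against -0.04 over all miRNAs. miR-192-5p and miR-194-5p, which are made from shared transcripts in liver and gut, rose by 0.95 ± 0.28 SE (adjusted p 0.0213) and by 1.02 ± 0.32 SE (adjusted p 0.0259). miR-30a-5p, which is made in many tissues, rose by 0.43 ± 0.15 SE (adjusted p 0.0428). The share called on the list, 3 of 11, was close to the 27.8% of all tested miRNAs. In old mice 1 of 11 was called for dwarf against normal, below the 26.4% of all miRNAs. This was miR-30a-5p at 0.77 ± 0.22 SE (adjusted p 0.0135) and, without the 4 dwarf libraries, at 0.57 (adjusted p 0.193). In young mice edgeR called none of the 11, against 0.0% of all miRNAs. There 4 of the 11 had an unadjusted p under 0.05, against 7.78% of all, and DESeq2 called 2, against 1.67% of all. For old against young normal mice 1 of 11 was called, against 15.6% of all miRNAs, namely the gut and liver miRNA miR-215-5p at 1.44 ± 0.48 SE (adjusted p 0.0475). Without the 4 dwarf libraries none of the 11 was called over both ages, where miR-192-5p stood at 0.35 (adjusted p 0.416) and miR-194-5p at 0.26 (adjusted p 0.523), or with the haemolysis index in the fit.

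The miRNAs whose levels followed a member most closely differed between the hairpins. Likeness was measured by Pearson's r of log2 CPM over the 20 libraries, which share their depth and composition between miRNAs, and is a description with no test. miR-802-5p was most like miR-192-5p, with r of 0.92 over 20 libraries and 0.88 over the 16 left without the 4 high dwarf libraries. Its next were miR-194-5p (0.85 over 20 and 0.39 over 16 libraries), miR-101b-3p (0.67 and 0.04) and miR-152-3p (0.60 and 0.34). For these 3 the likeness rested largely on the 4 dwarf libraries, and leaving these out narrows the range of miR-802-5p.

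miR-122-5p was most like miR-194-5p, with r of 0.81 over 20 and 0.27 over 16 libraries, followed by miR-101b-3p (0.69 and 0.13), miR-30b-5p (0.67 and 0.62) and miR-193a-3p (0.60 and 0.21). miR-148a-3p was most like miR-193a-3p, with 0.86 over 20 and 0.88 over 16 libraries, then miR-378b (0.83 and 0.76), miR-5128 (0.80 in both sets) and miR-378a-3p (0.79 and 0.73), which the 4 dwarf libraries hardly changed.

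Outside the 4 dwarf libraries the levels of miR-122-5p and miR-802-5p showed no common course. Over the other 16 libraries Pearson's r was -0.03 and Spearman's rho -0.20. Over all 20 libraries r was 0.75 and rho 0.38, and r on deviations from the group means was 0.81. Without old dwarf replicate 4 and young dwarf replicate 3 alone, r was 0.55. Leaving out the highest libraries of both miRNAs narrows their range and lowers r by construction. The values over 16 libraries therefore cannot show that the levels are unrelated. The ratio of miR-122-5p to miR-802-5p reads was 2.04 and 1.11 in old dwarf replicates 4 and 5 and 1.38 and 0.867 in young dwarf replicates 3 and 5. Young normal replicate 3, high in miR-122-5p but not in miR-802-5p, had the highest ratio, 3.83, and young dwarf replicate 2 the lowest, 0.0568. Against miR-148a-3p, r for miR-122-5p was 0.49 over 20 and 0.02 over the same 16 libraries. For miR-802-5p it was 0.42 over 20 and -0.30 over 16.

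**Figure D5:**
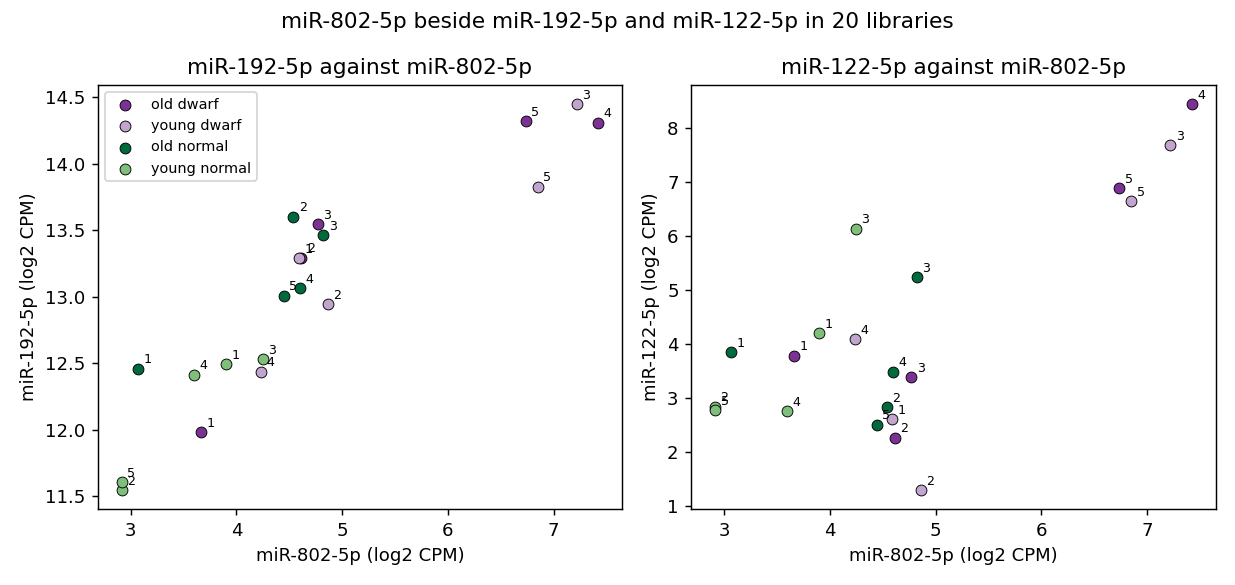
log2 CPM of miR-192-5p (left, y axis) and of miR-122-5p (right, y axis) against log2 CPM of miR-802-5p (x axis) in 20 libraries, with replicate numbers beside the points. On the left the libraries follow 1 course from low to high. On the right the 4 high dwarf libraries stand apart along the x axis (r of 0.75 over all 20). The other 16 show no common course (r of -0.03).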

How the data were processed

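Serum RNA of 20 samples was extracted with a miRNeasy kit and made into TruSeq small RNA libraries, per the labels' protocols. Per the submitters' processing notes, Bowtie 0.12.8, bedtools, edgeR and GRCm38 (mm10) were used; their roles are not given in the sources used here. The deposited values used here are whole-number read counts per mature miRNA and precursor, per the file headers. The authors' RPM columns matched count over column sum within 0.005 RPM and entered no test. A deposited miRDeep2 report over all samples, with a score and read numbers per hairpin, gave no values per library. Unused columns of values per sample numbered 0, and 1 unused column repeated the sum over samples.

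The table had 2241 rows, and the row with the highest total was kept per name. Each member had 1 row, and 0 of the members shared all reads with another name. edgeR 4.0.16 (limma 3.58.1, R 4.3.3) fitted 4 group coefficients over 20 libraries with TMM factors and the default filter (minimum count 10), which kept 360 names and at least 99.9% of reads. The common biological coefficient of variation was 47.5%. Adjustment was by Benjamini-Hochberg. DESeq2 1.42.0 was an alternative. The fit was tested on simulated data with known changes. Depth was 1343137 to 4710263 reads. Arm ratios used counts plus 0.5.

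Members and lists were chosen with earlier results of these data known. Named miRNAs are the members, those with the miR-148a-3p seed and their other arms, up to 4 liver miRNAs by smallest p, and the 4 miRNAs most like each main arm. Replicate numbers did not pair libraries: 13 of 30 same-numbered pairs correlated above 0.1 (-0.68 to 0.81).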

Additional observations from a re-analysis of the deposited data

Results flagged for a closer look

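In 7 of the 36 sets of 5 libraries checked, 1 library lay far from the other 4 of its group, by the gap to its neighbour over the range of the group (Dixon's test, critical value 0.71). Chance gives about 1 in 20 such sets only for normally distributed, independent sets. The flagged sets are CPM levels, which are skewed, and the arms of a hairpin share libraries. For miR-122-3p in old normal mice the flag is 1 library with reads beside 4 with none. Whether 7 is more than chance gives was not tested. In old dwarf mice replicate 4 was high in miR-122-3p (36.8 CPM) and in miR-802-3p (38.2 CPM). In old normal mice replicate 3 was high in both arms of miR-122, with 36.96 CPM of miR-122-5p and 3.58 CPM of miR-122-3p, and replicate 1 was high in both arms of miR-148a, with 6103 CPM of miR-148a-3p and 94.0 CPM of miR-148a-5p. In young normal mice replicate 3 was high in miR-122-5p (69.6 CPM).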

How the results depend on the processing

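Over both ages, the calls of miR-802-5p and miR-802-3p as higher in dwarf serum held in all 20 fits that left out 1 library. miR-802-5p over both ages missed the threshold with the haemolysis index as a covariate (1.82), without the 4 high dwarf libraries (0.56) and without those and the highest normal library at each age (0.72). The causes were not tested. Values below are log2 fold changes unless called counts or differences in arm ratio. They are from edgeR except where DESeq2 is named.

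DESeq2 called 6 miRNAs between young dwarf and young normal mice (0 in edgeR), 117 between old and young normal mice (56), 20 for the difference between age effects (2) and 61 for old against young over both genotypes (32). It moved past the threshold miR-802-5p in young mice (2.625) and in old mice (1.885), miR-122-5p in old mice (2.92) and over both ages (2.33), and miR-148a-3p over both ages (0.56), and turned miR-148a-3p in normal mice with age to -0.0105. With no filter, the counts were 1 in young mice for genotype and 13 for the difference between age effects. miR-802-5p then passed in young mice (2.56) and old mice (1.77), miR-122-5p in old mice (2.79) and over both ages (2.23), while the age effect turned for miR-148a-3p in normal mice (-0.0598), miR-802-5p in dwarf mice (-0.0809) and miR-122-5p over both genotypes (-0.085).

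RLE factors put miR-802-5p in old mice (1.88) and miR-148a-3p over both ages (0.56) past the threshold, turned miR-148a-3p in normal mice with age to -0.0105 and left 1 call for the difference between age effects. Library totals, which shift the median of all miRNAs, put miR-802-5p in old mice (2.105) and miR-122-5p over both ages (2.71) past it. They gave 106 calls between old and young normal mice, 0 between old and young dwarf mice, 0 for the difference between age effects and 108 for age over both genotypes. Age effects turned for miR-148a-3p in normal mice (-0.45), miR-802-5p in dwarf mice (-0.42) and miR-122-5p over both genotypes (-0.38). Upper-quartile factors gave 0 calls for the difference between age effects and 0.11 for miR-802-3p in normal mice with age.

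A minimum mean of 10 CPM gave 61 calls in old mice for genotype, 51 over both ages, 1 for age in dwarf mice and 0 for the difference between age effects, with miR-802-5p at -0.0272 for age in dwarf mice. Fitting only the groups compared gave 63 calls in old mice for genotype, 34 for age in normal mice and 0 for age in dwarf mice, with miR-148a-3p at -0.175 for age in normal mice. Summed precursor rows gave 1 call for age in dwarf mice, 0 for the difference between age effects and -0.0295 for miR-802-5p with age in dwarf mice.

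With the haemolysis index, calls numbered 1 in young mice and 0 in old mice for genotype, 16 over both ages, 1 for age in normal mice, 0 for the difference between age effects and 0 for age over both genotypes. Signs turned in old mice for miR-148a-3p (-0.13) and miR-148a-5p (-0.48), in normal mice with age for miR-122-5p (1.64) and miR-802-3p (1.48), in dwarf mice with age for miR-122-5p (-0.0151) and miR-802-5p (-0.10), over both genotypes with age for miR-802-3p (0.37) and miR-148a-3p (0.10), and for the difference between age effects of miR-122-5p (-1.65).

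Without the 4 dwarf libraries, calls numbered 14 in old mice for genotype, 1 for age in dwarf mice, and 0 for the difference between age effects, for genotype over both ages and for age over both genotypes. miR-122-5p stood at -1.34 in young mice, -0.70 in old mice, -1.02 over both ages and -0.11 with age over both genotypes, miR-148a-5p at -0.47 in old mice and miR-802-5p at -0.16 with age in dwarf mice. Without the 2 normal libraries as well, calls numbered 0 in old mice, over both ages, for age in normal mice, in dwarf mice and over both genotypes, and for the difference between age effects. miR-122-5p stood at -0.23 in young mice and -0.0821 over both ages, miR-148a-5p at -0.56 in old mice, miR-802-5p at -0.15 with age in dwarf mice and miR-148a-3p at 0.0311 with age over both genotypes. Both checks were chosen after seeing the data, leave fewer libraries and leave out more dwarf than normal ones.

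With the replicate block, which has no pairing behind it (3 of 20 libraries correlated best with their own number), calls numbered 0 for age in dwarf mice, 0 for the difference between age effects and 1 for age over both genotypes, and miR-802-5p stood at -0.0284 with age in dwarf mice. The block gave 1.87 for miR-802-5p (adjusted p 0.0172) and 2.12 for miR-802-3p (adjusted p 0.0301) over both ages.

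Leaving out 1 library at a time, calls ranged from 51 (without old dwarf replicate 5) to 143 in old mice for genotype, from 54 (without young dwarf replicate 3) to 145 over both ages, from 29 to 123 for age in normal mice, from 0 to 2 in dwarf mice, from 0 to 3 for the difference between age effects and from 1 to 69 for age over both genotypes. miR-122-5p ranged from 1.40 to 2.80 for genotype over both ages, from -1.26 to 0.71 for age in normal mice, from -0.94 to 1.65 in dwarf mice, from -0.71 to 0.65 over both genotypes and from -0.47 to 2.12 for the difference between age effects. miR-802-5p ranged from 0.95 to 1.999 for genotype in old mice and from -0.70 to 0.54 for age in dwarf mice. miR-802-3p ranged from -0.22 to 0.58 for age in normal mice, from -1.64 to 0.35 in dwarf mice, from -0.83 to 0.16 over both genotypes and from -1.61 to 0.37 for the difference between age effects. miR-148a-3p ranged from -0.20 to 0.17 for age in normal mice and from 0.36 to 0.61 for genotype over both ages, and miR-148a-5p from -0.175 to 0.86 in old mice. Differences in mean log2 arm ratio ranged from -0.32 to 0.26 for miR-122 with age in dwarf mice and from -0.34 to 0.0413 for miR-802 in old mice. They ranged from -0.20 to 0.35 for miR-802 with age in dwarf mice and from -0.24 to 0.23 for miR-148a in old mice.

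Depth limits the rarer arms: 5 to 553 reads of miR-122-5p and 0 to 57 of miR-122-3p stood behind a level, beside 15 to 401 of miR-802-5p and 3 to 108 of miR-802-3p.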
